A study of Saccharomyces cerevisiae with 10 samples.

Results

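The RNA of 4 overexpression strains of budding yeast was compared side against side. One side held the strains TIF35-OE and UTP6-OE, which carry an extra copy of a gene of translation or ribosome assembly, and the other held LSM5-OE and PRP22-OE, which carry an extra copy of a gene of mRNA decay or splicing. Each strain was measured in 2 independent cultures, so that 8 of the 10 libraries of the series entered the comparison, and the 2 cultures of the WT control served only as a reference. All strains had the BY4741 background, and each overexpressed gene sat with its own promoter and terminator on a low-copy centromeric plasmid with the URA3 marker. The labels name no plasmid for WT, but the paper's lifespan control carried the empty vector, and WT cultures here had URA3 RNA, given below. Cultures were untreated, grew without uracil in 2% glucose and were collected at an OD600 of 0.4. The library's clones were kept as 1 stock per gene, so the cultures of a strain are not independent transformants, and a strain's own genetic differences cannot be told apart from the effect of its plasmid. Genes were kept where the 4 cultures of one side all lay beyond the 4 cultures of the other, among the 5768 of 5824 features whose mean was 1 FPKM or more (fragments per kilobase per 1000000 fragments, a level scaled to length and library size).

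Tif35 is a subunit of eIF3, the factor that holds the small ribosomal subunit ready for a start codon, and Utp6 is part of the small subunit processome, which builds that subunit in the nucleolus. Lsm5 belongs to the rings of Lsm proteins that bind the ends of decaying mRNA and of the U6 spliceosomal RNA, and Prp22 is the helicase that releases spliced mRNA from the spliceosome. Among the genes that separated the sides, those of zinc and iron uptake stood at the wide end. Yeast senses scarce zinc through the transcription factor Zap1, which turns on transporters at the plasma membrane and the vacuole, and scarce iron through Aft1 and Aft2, which turn on a reductive uptake system and the uptake of iron bound to siderophores.

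The deposited depth could only be estimated, from the steps between low FPKM values, and lay between 13480000 and 17340000 fragments per library. The estimated fragment length was 309 to 314 bases in 7 libraries. It was 281 to 284 bases in the other 3, namely culture 1 of TIF35-OE, culture 1 of UTP6-OE and culture 2 of PRP22-OE, so that 2 of 4 libraries of one side and 1 of 4 of the other were short. As a check of the strain, the a-cell receptor gene STE2 had 506 to 611 FPKM in TIF35-OE and UTP6-OE, 419.6 to 516 in LSM5-OE and PRP22-OE and 485 to 506 in WT, and the alpha-cell receptor gene STE3 lay between 12.9 and 17.3 FPKM in every culture, as BY4741 is an a strain. The plasmid marker URA3 had 686 to 894 FPKM on the first side, 625 to 800.0 on the second and 919.6 to 937 in WT, with the cultures of the 2 sides overlapping. Over the 16 chromosomes the median difference between the sides ranged from -0.072 to -0.012 on the log2 scale, so no chromosome stood apart as a whole.

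Of the overexpressed genes, each was highest in its own strain. TIF35 (chrIV:1324477-1325301) had 2121 and 2183 FPKM in TIF35-OE, 825 and 885 in UTP6-OE, 834 and 829 in WT, 842 and 819.7 in LSM5-OE and 857 and 875 in PRP22-OE. UTP6 (chrIV:1357580-1358902) had 84.4 and 70.0 FPKM in TIF35-OE, 204 and 212 in UTP6-OE, 80.5 and 85.9 in WT, 65.5 and 71.9 in LSM5-OE and 71.8 and 61.6 in PRP22-OE. Neither was kept, since 1 culture of the partner strain on the same side lay within the range of the other side, and their differences between the sides, 0.68 and 0.90 on the log2 scale, each rest on 1 strain. PRP22 (chrV:178841-182278) had 15.8 and 16.9 FPKM in TIF35-OE, 16.8 and 18.9 in UTP6-OE, 20.9 and 20 in WT, 19.0 and 21.5 in LSM5-OE and 43.3 and 44.5 in PRP22-OE. It was kept by a gap of 0.0044 on the log2 scale, and its high level was that of PRP22-OE alone. LSM5 (chrV:462585-462866) had 676 and 529.9 FPKM in TIF35-OE, 613 and 381 in UTP6-OE, 268 and 312 in WT, 865 and 1456 in LSM5-OE and 399 and 553 in PRP22-OE. LSM5 is 282 bases long, close to or under the fragment length, and its cultures differed widely within strains.

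The rule kept 1051 features, which is 18.2% of those tested. In TIF35-OE and UTP6-OE, 261 of them were higher (4.52%) and 790 were lower (13.7%). Most differences were small. At least 0.5 on the log2 scale was reached by 23 of the higher and 92 of the lower features, and at least 1 by 3 and 13. The median difference of the kept features was 0.21 among the higher and -0.28 among the lower ones, against -0.047 over all tested features. With limma, a linear model of log2(FPKM + 0.5) with 5 strain means over all 10 libraries, 1259 features (21.8%) had an adjusted p of at most 0.05 for the difference between the sides. Of these, 359 (6.22%) were higher and 900 (15.6%) lower in TIF35-OE and UTP6-OE, and 844 of the calls had also been kept. Both counts use the same values, so neither supports the other. The share of calls that were higher, 28.5%, depended on the scaling between libraries. It was 52.7% after rescaling by the median of ratios, where 1388 features were called.

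Differences within a side were tested with the same model, but with 2 cultures against 2, where the sides had 4 against 4. For ZPS1 the standard error was 0.064 within a side and 0.045 between the sides, so counts of calls are not directly comparable. TIF35-OE and UTP6-OE differed from each other in 381 features (6.61%), and LSM5-OE and PRP22-OE in 278 (4.82%). Of the 790 kept lower features, 4.43% differed between TIF35-OE and UTP6-OE and 2.41% between LSM5-OE and PRP22-OE. Of the 261 kept higher features these shares were 5.75% and 3.07%. The rule itself favours features with small differences within a side, so these shares are not a separate result. The p-values of the main model measure the spread between cultures of a strain, not between strains. When the 2 sides were the only groups, so that differences between strains of a side entered the spread, 460 features were called, 97 higher and 363 lower, and all 460 were among the 1259. This fit left out WT, a step that by itself gave 978 calls. It still counted the 2 cultures of a strain as independent, so the strain was not its unit. With 2 strains on each side there are 6 ways to choose the strains of a side, so a permutation of strains could not give a p below 0.333. Leaving out 1 culture gave between 769 and 1306 calls, with 769 without the first TIF35-OE culture, 833 without the second, 813 without the second UTP6-OE culture and 828 without the first PRP22-OE culture. Only 49 were called with the 7 long-fragment libraries, where 2 residual degrees of freedom remain.

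WT did not sit between the sides for most kept features. Of the 790 lower features, the WT cultures overlapped the LSM5-OE and PRP22-OE cultures in 391 and the TIF35-OE and UTP6-OE cultures in 99. They lay above every culture of both sides in 154, below in 41, between the sides in 63 and overlapped both in 42. Of the 261 higher features, WT overlapped LSM5-OE and PRP22-OE in 101 and TIF35-OE and UTP6-OE in 40. It lay below both sides in 95, above both in 4, between them in 12 and overlapped both in 9. Against WT, the mean of TIF35-OE and UTP6-OE differed in 2010 features (34.8%) and that of LSM5-OE and PRP22-OE in 935 (16.2%). Both comparisons share the 2 WT cultures, so these counts are not independent.

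Zinc genes held the widest gap of all. ZPS1 (chrXV:34658-35407), which encodes a cell surface protein made when zinc is scarce, had 32.0 and 35.7 FPKM in TIF35-OE, 30.0 and 30.2 in UTP6-OE, 839.7 and 815 in WT, 2622 and 2539.8 in LSM5-OE and 1328 and 1235 in PRP22-OE. All 4 cultures of TIF35-OE and UTP6-OE were far below both WT cultures, and all 4 of LSM5-OE and PRP22-OE were above them. The mean over cultures was 60.4-fold higher in LSM5-OE and PRP22-OE, a log2 difference of -5.81 (standard error 0.045, limma adjusted p = 2.64e-10). ZPS1 also differed within one side, being higher in LSM5-OE than in PRP22-OE by 1.01 (limma adjusted p = 0.000312), while TIF35-OE and UTP6-OE differed by 0.17 (limma adjusted p = 0.182).

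ZRT1 (chrVII:20978-22108), the high-affinity zinc transporter of the plasma membrane, had 478 and 511 FPKM in TIF35-OE, 487 and 508 in UTP6-OE, 936 and 949.8 in WT, 2389.7 and 2294 in LSM5-OE and 2297 and 2139.8 in PRP22-OE. Its levels were nearly equal within each side, and WT lay between the sides. The difference was -2.20 (standard error 0.043, limma adjusted p = 1.23e-07). ADH4 (chrVII:15159-16307), an alcohol dehydrogenase whose gene lies near ZRT1 and is also known to rise when zinc is scarce, had 57.2 and 60.5 FPKM in TIF35-OE, 63.4 and 66.3 in UTP6-OE, 119 and 129 in WT, 432 and 417 in LSM5-OE and 156 and 151 in PRP22-OE. Both WT cultures again lay between the sides, and LSM5-OE stood above PRP22-OE. Its difference was -2.04 (standard error 0.041, limma adjusted p = 1.23e-07). VEL1, a gene of unknown function in the same region, had 6.65 and 5.90 FPKM in TIF35-OE, 7.46 and 5.89 in UTP6-OE, 9.28 and 8.69 in WT, 17.4 and 20.7 in LSM5-OE and 10.3 and 10.7 in PRP22-OE. WT lay between the sides here too, and the difference was -1.08 (standard error 0.11, limma adjusted p = 0.000692).

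The genes of zinc storage and of the regulator moved less. ZRT3, which exports zinc from the vacuole, had 152 and 162 FPKM in TIF35-OE, 163 and 165 in UTP6-OE, 167 and 161 in WT, 230.0 and 246 in LSM5-OE and 232 and 226 in PRP22-OE. Here WT overlapped TIF35-OE and UTP6-OE, and LSM5-OE and PRP22-OE were higher. ZAP1, the regulator itself, had 11.8 and 13.8 FPKM in TIF35-OE, 13.1 and 13.9 in UTP6-OE, 16.2 and 16.4 in WT, 17.8 and 19.9 in LSM5-OE and 18.8 and 20.2 in PRP22-OE, and FET4, a low-affinity carrier of iron and other metals, had 51.0 and 54.6 FPKM in TIF35-OE, 42.0 and 41.4 in UTP6-OE, 78.3 and 80.0 in WT, 82.4 and 82.3 in LSM5-OE and 72.4 and 71.3 in PRP22-OE. The differences were -0.54 for ZRT3, -0.53 for ZAP1 and -0.71 for FET4 (limma adjusted p = 0.000161, 0.00257 and 4.04e-05). ZRT2, the low-affinity zinc transporter, went the other way. It had 239.8 and 249 FPKM in TIF35-OE, 248 and 246 in UTP6-OE, 153 and 147 in WT, 169 and 161 in LSM5-OE and 238 and 232 in PRP22-OE. All 4 cultures of TIF35-OE and UTP6-OE were above the rest, although PRP22-OE was close behind and LSM5-OE stood nearer to WT. The difference was 0.32 (standard error 0.034, limma adjusted p = 0.00103).

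Over the list of 20 zinc genes, 8 were called lower and 1 higher in TIF35-OE and UTP6-OE, and the rule kept 8 and 1. For this and each list below, the scale is that 15.6% of all features were called lower and 6.22% higher. For kept counts it is that the rule kept 13.7% of all features as lower and 4.52% as higher. The median difference was -0.13, against -0.047 over all features, and 11 of the 20 did not pass the test. With the 2 sides as the only groups 7 were called lower and none higher. The zinc genes ZRC1, IZH1, DPP1, ZRG17, MCD4, TSA1 and ZTA1 had differences between -0.047 and 0.031, none past the test. Zap1 binds an 11-base site, and its palindromic form ACCTTNAAGGT (N is any base) reads alike on both strands. These letters occur in the 500 bases before the start codon of 9 of 5711 genes (0.158%), among them 3 zinc genes, 2 of the kept lower genes and none of the kept higher genes. The 3 sites are shown because only 1 of their genes was called. Each is given on the strand of its gene from the S288C assembly R64, with the match in capitals.
ZRT1: acatatttgACCTTGAAGGTcatggaaag
ZRG17: aaatgatgaACCTTGAAGGTatttttgtt
MCD4: gaaaaaaaaACCTTAAAGGTaaaaagaac
They lie at chrVII:20765-20793, chrXIV:699496-699524 and chrXI:140776-140804, and 199, 79 and 99 bases before their start codons. ZRT1 fell by 2.20 while ZRG17 and MCD4, which are known for zinc supply to the secretory pathway and for the synthesis of membrane anchors, differed by -0.018 and -0.026 (limma adjusted p = 0.745 and 0.645). A match is a stretch of letters and not a measured binding site, and the absence of these letters before ZPS1 says nothing of Zap1 there.

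**Figure D1:**
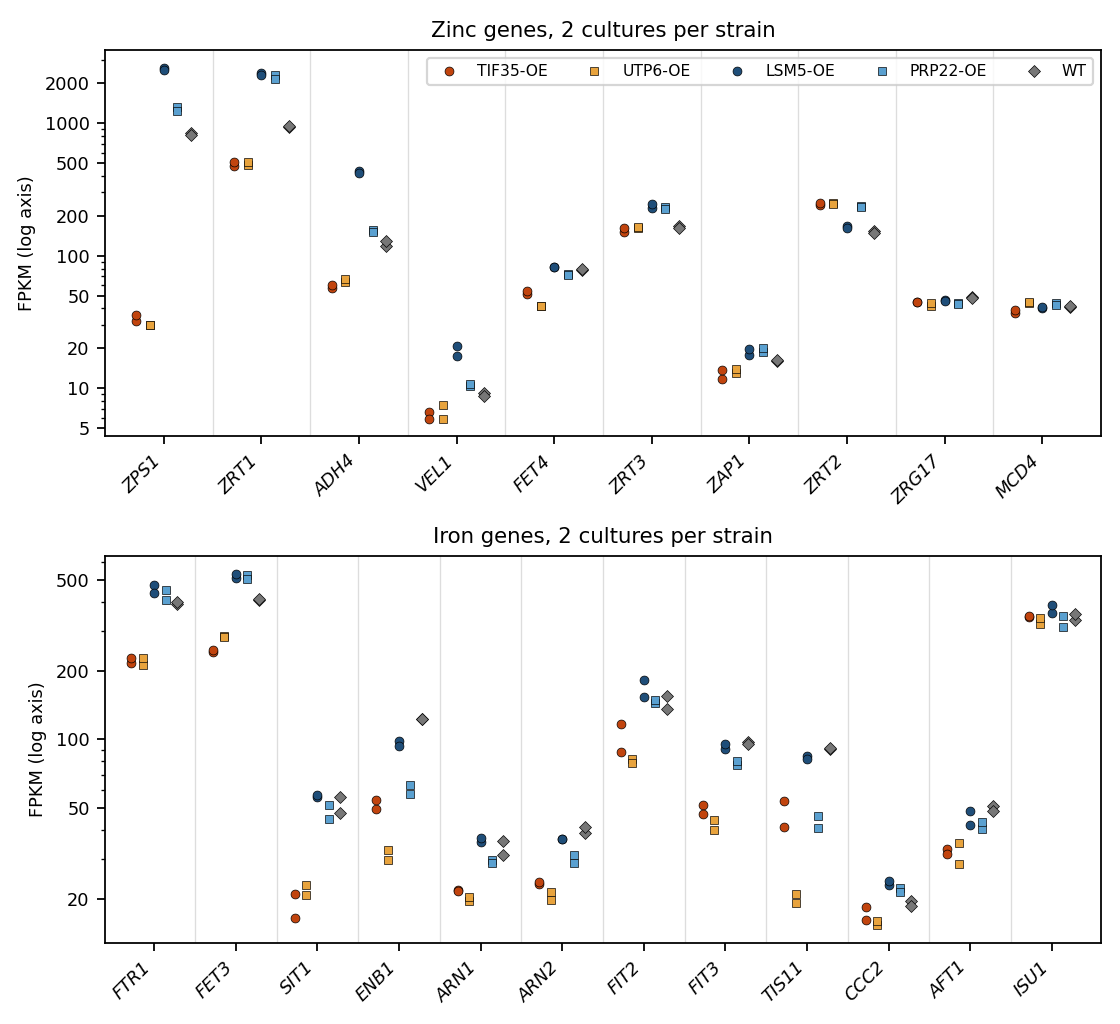
FPKM on a log axis of 10 zinc genes (top) and 12 iron genes (bottom), with 1 point per culture and 2 cultures per strain. For ZPS1 the TIF35-OE and UTP6-OE points sit at 30.0 to 35.7 FPKM and the LSM5-OE and PRP22-OE points at 1235 to 2622, and most iron genes are lower in TIF35-OE and UTP6-OE while ISU1 is not.

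Most iron uptake genes were lower. Of the 28 iron genes tested, 21 were called lower in TIF35-OE and UTP6-OE and none higher, and 18 were kept, all lower. The median difference of the list was -0.46. With the 2 sides as the only groups 12 were called lower. The list has a median length of 1704 bases, and features of 1000 to under 2000 bases had a median difference of -0.041. With each library centred on features of like length, chosen after seeing the data, 19 iron genes were still called lower, with a median of -0.36.

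The reductive system takes up iron through an oxidase and a permease that work as a pair. FTR1 (chrV:460526-461740), the permease, had 217 and 228 FPKM in TIF35-OE, 212 and 228 in UTP6-OE, 393 and 399.8 in WT, 476 and 440.5 in LSM5-OE and 451 and 408 in PRP22-OE. All cultures of TIF35-OE and UTP6-OE were below WT, and those of LSM5-OE and PRP22-OE were slightly above it. The difference was -1.002 (standard error 0.050, limma adjusted p = 4.04e-05). FTR1 lies close to LSM5 on chromosome V, and its levels in LSM5-OE and PRP22-OE overlapped. FET3 (chrXIII:388822-390732), the multicopper oxidase, had 241 and 245 FPKM in TIF35-OE, 283 and 282 in UTP6-OE, 409 and 412 in WT, 512 and 531 in LSM5-OE and 524 and 506 in PRP22-OE. WT lay between the sides, and the rule itself required the gap in both strains of each side. Its difference was -0.98 (standard error 0.032, limma adjusted p = 3.36e-06). CCC2, which delivers copper to Fet3, had 16.1 and 18.4 FPKM in TIF35-OE, 15.3 and 15.9 in UTP6-OE, 19.6 and 18.5 in WT, 22.9 and 23.9 in LSM5-OE and 22.2 and 21.5 in PRP22-OE, and differed by -0.45 (standard error 0.060, limma adjusted p = 0.00237). The metalloreductase genes FRE1, FRE2, FRE3, FRE5 and FRE6 were kept as lower, with differences between -0.65 and -0.32, and FRE4 was called but not kept (-0.48, limma adjusted p = 0.0249).

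Carriers of siderophores, small iron chelators that microbes release, fell more in some cases. SIT1 (chrV:27657-29543), the transporter of ferrioxamine, had 16.4 and 21.0 FPKM in TIF35-OE, 20.7 and 22.9 in UTP6-OE, 55.7 and 47.7 in WT, 56.0 and 57.1 in LSM5-OE and 51.3 and 44.9 in PRP22-OE. Both other strains lay close to WT, and TIF35-OE and UTP6-OE were well below. The difference was -1.35 (standard error 0.092, limma adjusted p = 0.000134). ENB1, the enterobactin transporter, had 49.2 and 54.4 FPKM in TIF35-OE, 29.6 and 32.8 in UTP6-OE, 123 and 122 in WT, 98.4 and 93.7 in LSM5-OE and 62.8 and 57.5 in PRP22-OE. UTP6-OE was lowest and WT highest, with PRP22-OE not far above TIF35-OE, and the difference was -0.91 (standard error 0.054, limma adjusted p = 7.36e-05). ARN1 and ARN2, further carriers of the family, differed by -0.63 and -0.58 (limma adjusted p = 0.000395 and 0.000395). The cell wall proteins that retain siderophores followed in part. FIT3 had 51.4 and 47.0 FPKM in TIF35-OE, 39.9 and 44.3 in UTP6-OE, 97.1 and 95.6 in WT, 91.0 and 95.6 in LSM5-OE and 77.2 and 80.3 in PRP22-OE, with the side of TIF35-OE and UTP6-OE lowest and WT at the level of LSM5-OE. FIT3 differed by -0.91 and FIT2 by -0.79 (limma adjusted p = 5.1e-05 and 0.0018), while FIT1 differed by -0.26 and did not pass (limma adjusted p = 0.258).

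Genes that act inside the cell were more mixed. TIS11, whose protein marks mRNAs of iron-using proteins for decay, had 41.4 and 53.8 FPKM in TIF35-OE, 19.1 and 20.9 in UTP6-OE, 91.0 and 92.0 in WT, 84.6 and 82.4 in LSM5-OE and 46.3 and 40.9 in PRP22-OE. The call (a difference of -0.96, limma adjusted p = 0.000445) came with an overlap of the sides, since the cultures of PRP22-OE overlapped those of TIF35-OE. HMX1, the heme oxygenase, was kept with a difference of -0.63, the vacuolar iron exporter SMF3 with -0.22 and the mitochondrial iron carrier MRS4 with -0.25 (limma adjusted p = 0.00105, 0.00483 and 0.0173). AFT1, the regulator, had 33.2 and 31.5 FPKM in TIF35-OE, 35.0 and 28.4 in UTP6-OE, 50.8 and 48.4 in WT, 41.9 and 48.4 in LSM5-OE and 40.3 and 43.6 in PRP22-OE, and differed by -0.44 (limma adjusted p = 0.00724). AFT2 differed by 0.066, the vacuolar importer CCC1 by -0.061 and the iron-sulfur scaffold genes ISU1 and ISU2 by -0.049 and 0.053, none past the test (limma adjusted p = 0.423, 0.436, 0.531 and 0.769).

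Aft1 binds the core TGCACCC. On either strand of the 500 bases before the start codon these letters were found for 133 of 5711 genes (2.33%). They were found for 32 of 784 kept lower genes with a window (4.08%) and for 3 of 256 kept higher genes (1.17%). Of the 32, 15 belong to the iron list, which was drawn up from genes tied to Aft1 and Aft2. The 4.08% therefore does not describe the other kept lower genes. In the iron list 21 of 28 genes had them, and 17 of these 21 were called lower, with a median difference of -0.58. Of the 7 without them 4 were called lower, with a median of -0.23. Sites of 5 iron uptake genes that were called lower, chosen after their values were seen, are shown on the strand of the gene, with the core or its reverse complement GGGTGCA in capitals, and those of ISU1 and FET5, which did not pass the test, for comparison.
SIT1: aacacatttgaGGGTGCAatctggttcgt
FTR1 near: gcgtagatgaaTGCACCCgatttctaagt
FTR1 far: tttccaggccaGGGTGCAgaaatactatt
FET3: atcttcaaaagTGCACCCatttgcaggtg
FIT3 near: attctaggaaaGGGTGCAaaaaaatgggg
FIT3 far: agattttttttTGCACCCtgtttgttccg
ENB1 near: cggcttacaatTGCACCCctctgtggctt
ENB1 far: gtttaaattatTGCACCCaaatgtgatac
ISU1: ataaggtgcgtTGCACCCcaattagccat
FET5: tgtattcagtcTGCACCCtgtttcgccat
The sites lie at chrV:27458-27486 (SIT1), chrV:461898-461926 and chrV:462088-462116 (FTR1), chrXIII:388560-388588 (FET3), chrXV:1061222-1061250 and chrXV:1061323-1061351 (FIT3), chrXV:21431-21459 and chrXV:21487-21515 (ENB1), chrXVI:297290-297318 (ISU1) and chrVI:49000-49028 (FET5). FIT3 and FRE5 are transcribed away from each other, so the same letters count for both genes. The core was thus present before genes that fell and before genes that did not, and the binding of Aft1 was not measured.

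The stress gene HSP30 had the widest gap among the higher genes. HSP30 (chrIII:156109-157107), a heat shock protein of the plasma membrane, had 619 and 678 FPKM in TIF35-OE, 675 and 711 in UTP6-OE, 328 and 325 in WT, 321 and 274 in LSM5-OE and 239 and 222 in PRP22-OE. The 4 cultures of TIF35-OE and UTP6-OE were high, WT lay just above LSM5-OE, and PRP22-OE was lowest. The difference was 1.36 (standard error 0.060, limma adjusted p = 2.44e-05). YRO2, a membrane protein of the same family, had 685 and 787 FPKM in TIF35-OE, 699.8 and 707 in UTP6-OE, 331 and 308 in WT, 474 and 402 in LSM5-OE and 515 and 445 in PRP22-OE, and YGP1, a secreted glycoprotein made when nutrients run short, had 1857 and 2022 FPKM in TIF35-OE, 1984 and 1947 in UTP6-OE, 874 and 903 in WT, 1270.2 and 1257 in LSM5-OE and 1437 and 1359 in PRP22-OE. For both genes every overexpression culture lay above WT, and those of TIF35-OE and UTP6-OE lay highest. Their differences were 0.65 and 0.55 (limma adjusted p = 0.00148 and 0.000215).

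Over the list of 29 genes of the general stress response, 14 were called higher and 4 lower, with a median difference of 0.16, and the rule kept 5 and 3. Among the kept ones were SSA1, a cytosolic Hsp70 chaperone (0.26), GRE3, an aldose reductase (0.36), and SPI1, a cell wall protein (0.51), with limma adjusted p of 0.00436, 0.00453 and 0.00489. The small heat shock genes HSP12 and HSP26 were called with 0.40 and 0.46 (limma adjusted p = 0.0223 and 0.00226) but their cultures overlapped between the sides. ALD4, the mitochondrial aldehyde dehydrogenase, went the other way. It had 208 and 215 FPKM in TIF35-OE, 202 and 208 in UTP6-OE, 178 and 169.7 in WT, 304 and 285 in LSM5-OE and 352 and 329 in PRP22-OE, and TIF35-OE and UTP6-OE lay between WT and the other side. MSN4 and XBP1, transcription factors of the stress response, were also kept as lower (-0.37 and -0.39, limma adjusted p = 0.00372 and 0.00237). With the 2 sides as the only groups, 5 stress genes were called higher and 3 lower.

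The other genes with wide gaps upward belonged to no single list. CIP1 (chrXVI:527547-528692), an inhibitor of the cyclin-dependent kinase Cdc28, had 341 and 323 FPKM in TIF35-OE, 441 and 377 in UTP6-OE, 223 and 213 in WT, 190.2 and 203 in LSM5-OE and 160.1 and 160.3 in PRP22-OE. WT lay between the sides, and the difference was 1.05 (standard error 0.055, limma adjusted p = 4.76e-05). COM2 (chrV:421115-422446), a zinc finger transcription factor, had 229 and 226 FPKM in TIF35-OE, 256 and 253 in UTP6-OE, 176 and 179.8 in WT, 144 and 157 in LSM5-OE and 119 and 133 in PRP22-OE. It too had WT between the sides, with a difference of 0.81 (standard error 0.046, limma adjusted p = 7.07e-05). TDA6 (chrXVI:841266-842669) had 93.7 and 101 FPKM in TIF35-OE, 139 and 142 in UTP6-OE, 56.0 and 55.4 in WT, 51.3 and 55.4 in LSM5-OE and 60.1 and 53.4 in PRP22-OE. Here LSM5-OE and PRP22-OE lay at the level of WT, and UTP6-OE stood above TIF35-OE. TDA6 differed by 1.08 (standard error 0.050, limma adjusted p = 3.12e-05). YDR222W, of unknown function, had 106 and 101 FPKM in TIF35-OE, 147 and 143 in UTP6-OE, 59.2 and 62.3 in WT, 53.8 and 61.3 in LSM5-OE and 76.1 and 68.5 in PRP22-OE. PRP22-OE lay somewhat above WT here, and YDR222W had a difference of 0.92 (limma adjusted p = 8.06e-05).

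In a further set, all 4 strains were above WT and TIF35-OE and UTP6-OE were highest. PHM8, a phosphatase of lysophosphatidic acid and nucleotides that is known from phosphate starvation, had 121 and 129.6 FPKM in TIF35-OE, 134 and 128 in UTP6-OE, 69.6 and 64.5 in WT, 82.0 and 88.0 in LSM5-OE and 80.0 and 74.5 in PRP22-OE. STP4, a zinc finger protein, had 320.1 and 346 FPKM in TIF35-OE, 368 and 343 in UTP6-OE, 189 and 187 in WT, 211 and 233 in LSM5-OE and 224 and 237 in PRP22-OE. TPO2, a polyamine exporter, had 409 and 454 FPKM in TIF35-OE, 403 and 422 in UTP6-OE, 211 and 209.6 in WT, 302 and 275 in LSM5-OE and 302 and 265 in PRP22-OE. The same order of the sides and WT held for KTD1, a membrane protein known from defence against a killer toxin, and for YJR096W, a predicted reductase of sugars. KTD1 had 163 to 177 FPKM in TIF35-OE and UTP6-OE, 116 to 126 in LSM5-OE and PRP22-OE and 96.1 to 102 in WT. For YJR096W these ranges were 284 to 337, 214 to 221 and 172 to 182 FPKM. The differences between the sides were 0.66 for PHM8, 0.60 for STP4, 0.56 for TPO2, 0.46 for KTD1 and 0.51 for YJR096W, with limma adjusted p between 0.000138 and 0.000943. Of 25 phosphate genes 4 were called higher and 2 lower, with a median of 0.018, where 6.22% and 15.6% of all features were.

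**Figure D2:**
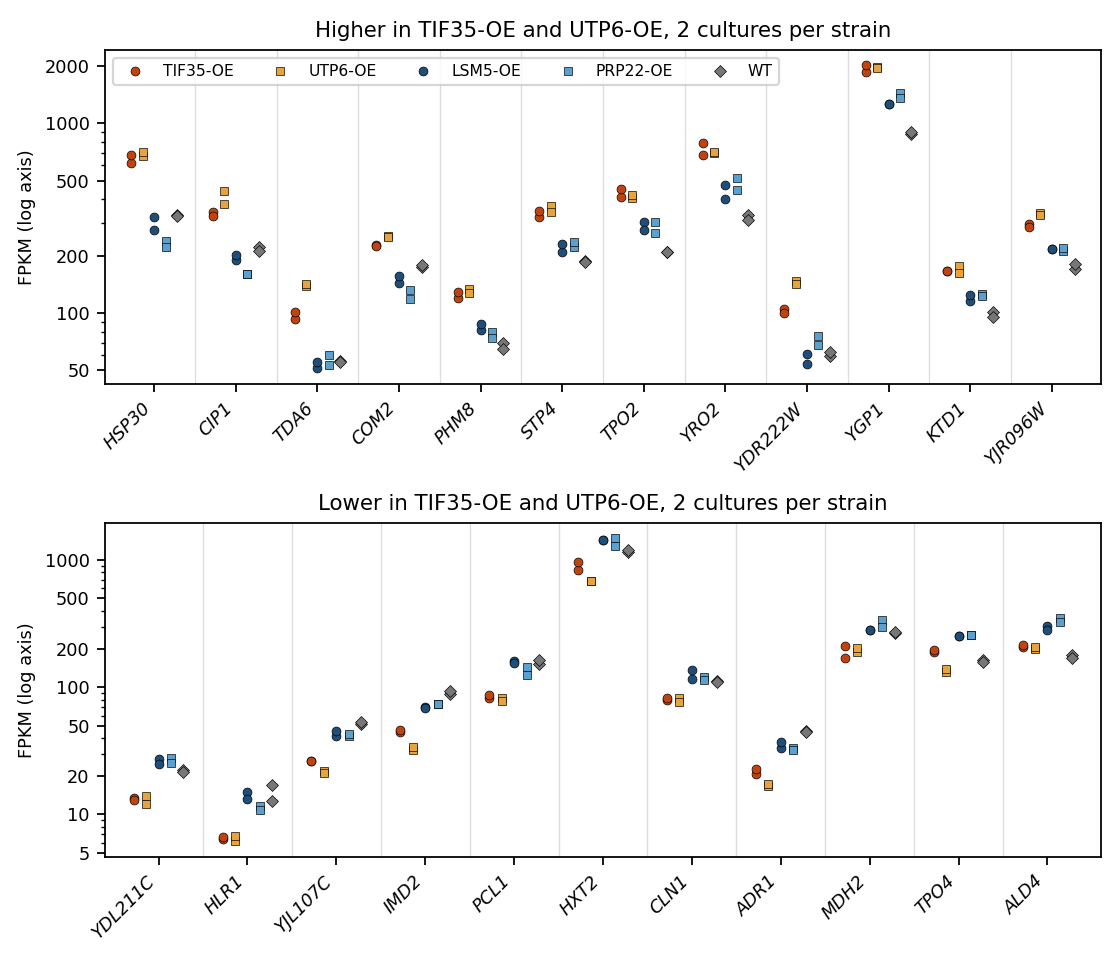
FPKM on a log axis of the 12 genes with the widest gap upward (top) and of 11 further genes that were lower in TIF35-OE and UTP6-OE (bottom), with 1 point per culture and 2 cultures per strain. In the upper panel WT is the lowest group for PHM8, STP4, TPO2, YRO2, YGP1, KTD1 and YJR096W, and lies between the sides for CIP1 and COM2.

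Downward, PCL1 and CLN1 stood out among the cyclins. PCL1 (chrXIV:87897-88736), a G1 cyclin of the kinase Pho85, had 83.1 and 86.3 FPKM in TIF35-OE, 82.3 and 78.3 in UTP6-OE, 151 and 163 in WT, 161 and 156 in LSM5-OE and 145 and 125 in PRP22-OE. CLN1, a G1 cyclin of Cdc28, had 79.3 and 82.9 FPKM in TIF35-OE, 82.4 and 77.2 in UTP6-OE, 112 and 109 in WT, 115 and 137 in LSM5-OE and 119.5 and 115 in PRP22-OE. For PCL1 the other side lay close to WT, and for CLN1 it lay slightly above. CLN3 was also kept as lower, with 50.6 to 57.9 FPKM against 64.3 to 82.0 and WT highest at 88.2 to 89.8. The differences of PCL1, CLN1 and CLN3 were -0.82, -0.59 and -0.44 (limma adjusted p = 0.00012, 0.000726 and 0.00517). PCL9, a Pho85 cyclin of early G1, was higher by 0.40 (limma adjusted p = 0.00273), and CLN2 differed by -0.0022 (limma adjusted p = 0.977). Of 20 cyclins and inhibitors of the cell cycle, 6 were called lower and 2 higher.

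Several genes of the shift to carbon sources other than glucose were lower. HXT2, a hexose transporter used at low glucose, had 836 and 964 FPKM in TIF35-OE, 681 and 683 in UTP6-OE, 1152 and 1192 in WT, 1448 and 1441 in LSM5-OE and 1483 and 1288 in PRP22-OE. UTP6-OE was lowest, and WT lay between the sides. HXT2 differed by -0.85 (standard error 0.061, limma adjusted p = 0.000161). None of the 19 genes of hexose transport and glucose sensing was called higher and 9 were called lower, with a median of -0.33. Differences were negative in all 19, and in 3566 of the 5768 features tested. The sensors RGT2 and SNF3 and the regulator MTH1 were kept as lower, by -0.29, -0.45 and -0.46 (limma adjusted p = 0.00408, 0.005 and 0.00234). For MTH1 and HXT7 every culture of both sides was above WT. The HXT genes are close relatives, so reads can be shared between them.

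ADR1, a transcription factor for growth on ethanol, had 21.0 and 22.9 FPKM in TIF35-OE, 16.6 and 17.3 in UTP6-OE, 45.5 and 44.2 in WT, 33.2 and 37.5 in LSM5-OE and 33.1 and 32.1 in PRP22-OE. All strains lay below WT, and UTP6-OE was lowest. MDH2, the cytosolic malate dehydrogenase, had 169.6 and 212 FPKM in TIF35-OE, 191 and 204 in UTP6-OE, 267 and 273 in WT, 285 and 283 in LSM5-OE and 340.0 and 300.4 in PRP22-OE, and WT lay between the sides, close to LSM5-OE. ADR1 and MDH2 differed by -0.80 and -0.64 (limma adjusted p = 0.00013 and 0.00145). CAT8, another activator of these genes, and ICL1, isocitrate lyase, were also kept as lower (-0.61 and -0.48, limma adjusted p = 0.00572 and 0.00289), with WT overlapping LSM5-OE and PRP22-OE only for CAT8. Of 29 genes of the TCA cycle, the glyoxylate cycle and gluconeogenesis, 9 were called lower and 2 higher, with a median of -0.12. Of the 20 glycogen and trehalose genes 7 were called lower and none higher, with a median of -0.080, and the rule kept 7. Of these, TPS2, GLC3, GLG1 and TSL1 were above WT in all 4 strains and PIG1 was below it. For TPS3 the WT cultures overlapped TIF35-OE and UTP6-OE, and for ATH1 they overlapped LSM5-OE and PRP22-OE. The glycogen and trehalose list has a median length of 2122.5 bases. With length-centred values 5 of its genes were called lower and 2 higher, with a median of 0.0083. The rule then kept 1 as lower and 1 as higher.

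IMD2 (chrVIII:554396-555967), an IMP dehydrogenase of guanine nucleotide synthesis, had 44.9 and 45.8 FPKM in TIF35-OE, 31.9 and 34.0 in UTP6-OE, 88.1 and 92.8 in WT, 70.5 and 68.8 in LSM5-OE and 74.2 and 73.7 in PRP22-OE. All strains were below WT, and the difference between the sides was -0.88 (standard error 0.037, limma adjusted p = 1.99e-05). IMD2 has close relatives in the genome, so its reads may be shared. YDL211C, of unknown function, had 13.5 and 13.01 FPKM in TIF35-OE, 14.1 and 12.2 in UTP6-OE, 22.6 and 21.6 in WT, 27.1 and 25.1 in LSM5-OE and 28.0 and 25.2 in PRP22-OE, and YJL107C, also of unknown function, had 26.3 and 26.4 FPKM in TIF35-OE, 21.9 and 21.3 in UTP6-OE, 51.0 and 53.6 in WT, 41.4 and 45.6 in LSM5-OE and 41.3 and 42.5 in PRP22-OE. HLR1, known from lithium tolerance, was low in all strains, with 6.13 to 6.73 FPKM in TIF35-OE and UTP6-OE, 10.8 to 14.9 on the other side and 12.8 to 17.0 in WT. The differences were -0.97, -0.83 and -0.90 (limma adjusted p = 0.00014, 5.13e-05 and 0.00154). The polyamine exporter TPO4 fell where TPO2 rose. It had 191 and 196 FPKM in TIF35-OE, 133 and 139 in UTP6-OE, 164 and 158 in WT, 252 and 253 in LSM5-OE and 260.0 and 256 in PRP22-OE, with LSM5-OE and PRP22-OE highest and UTP6-OE lowest, and differed by -0.65 (standard error 0.033, limma adjusted p = 4.23e-05).

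The complexes of the overexpressed proteins were counted against the 6.22% of all features called higher and the 15.6% called lower. In eIF3, the complex of Tif35, TIF35 itself was the only 1 of 6 genes called, and the median difference was 0.015. With length-centred values 2 of the 6 were called higher. In the small subunit processome, the complex of Utp6, 10 of 51 genes were called higher and 1 lower with a median of 0.079, and after rescaling by the median of ratios 23 were higher and none lower. With length-centred values limma called 31 higher and none lower, but with the 2 sides as the only groups it called none. The rule kept 2 of the 51, RCL1 and UTP5 (0.17 and 0.18, limma adjusted p = 0.012 and 0.00565), both higher in TIF35-OE and UTP6-OE. Over all features it kept 4.52% as higher. The 10 called higher include UTP6 itself, which was high in UTP6-OE alone (0.90, limma adjusted p = 0.000372). Of 57 genes of large subunit assembly 11 were called higher and none lower, with a median of 0.036. Rescaling gave 20 higher and length centring 25, while the 2 sides as the only groups gave none. These steps also changed the scale, which was 359 higher and 900 lower over all 5768 features in the main fit. Over all features, rescaling gave 732 higher and 656 lower. Length centring gave 654 higher and 610 lower among 5721 features, and the 2 sides as the only groups gave 97 and 363. TIF35-OE and UTP6-OE were not alike here, since the median difference of TIF35-OE from UTP6-OE was -0.24 over the processome list and -0.23 over the large subunit list, against -0.017 over all features. The PAC core GATGAG, known from promoters of ribosome assembly genes, was found in the windows of 44 of the 51 processome genes, 36.7% of the kept higher genes, 21.3% of the kept lower genes and 28.1% of all genes.

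Among the 9 genes of the Lsm rings and their partner PAT1, only PAT1 was called (-0.19, limma adjusted p = 0.0192), and after rescaling by the median of ratios 1 other was called higher. Of 29 genes of mRNA decay, 6 were called lower, where 15.6% of all features were, and none higher, with a median of -0.11, but after rescaling by the median of ratios none was lower and 1 was higher. The kept members included POP2 and CCR4 of the deadenylase (-0.17 and -0.15, limma adjusted p = 0.0142 and 0.0268). Of 12 genes of spliceosomal helicases and other splicing factors PRP22 was the only one called, and with length-centred values 1 other was called higher. The rule kept 4 of the 12 as lower, PRP22, PRP5, PRP16 and BRR2, where it kept 13.7% of all features. With length-centred values it kept 1 as lower. Of the 132 cytosolic ribosomal protein genes 2 were called lower and none higher, RPL33B and RPL31B (-0.31 and -0.30, limma adjusted p = 0.0113 and 0.00623), and after rescaling 2 were also called higher. Both are under 400 bases long, where FPKM depend most on the fragment length. RPS30A and RPS30B, at 192 bases, were listed at 0 in the 7 long-fragment libraries and between 11285 and 20057 FPKM in the 3 short ones, and were neither kept nor called.

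**Figure D3:**
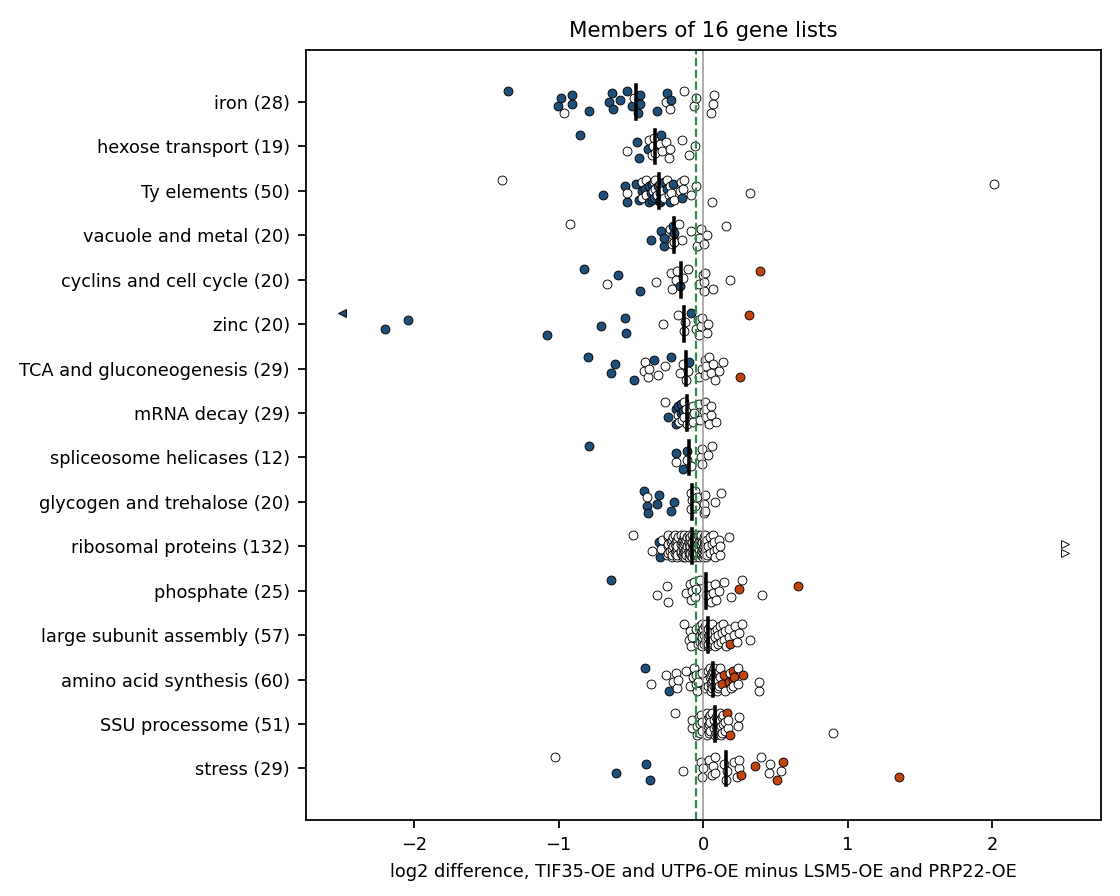
Difference between the sides on the log2 scale for each member of the gene lists, with the number of tested members in parentheses, red for kept higher, blue for kept lower and white for not kept. Black bars are list medians, the dashed line is the median of all features (-0.047), and triangles mark values beyond the axis, such as ZPS1 at -5.81. Iron genes have the lowest median (-0.46) and stress genes the highest (0.16) of the lists drawn.

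Ty retrotransposon features were lower too, with 28 of 50 called lower and none higher, a median of -0.31, and 22 kept. YJR027W had 28.7 and 29.7 FPKM in TIF35-OE, 26.5 and 27.0 in UTP6-OE, 78.5 and 75.2 in WT, 48.8 and 56.0 in LSM5-OE and 39.3 and 39.7 in PRP22-OE. WT was far above both sides. Copies of Ty elements are nearly identical, so a read may belong to any of several copies. LSM5-OE and PRP22-OE were not alike here. The median difference of LSM5-OE from PRP22-OE was 0.26 over the list, against 0.036 over all features. For TIF35-OE from UTP6-OE the list median was -0.0048. With length-centred values 21 were called lower and the rule kept 9, all lower. With the 2 sides as the only groups 9 were called lower.

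Length was related to the comparison as a whole. The kept lower features had a median length of 1972.5 bases and a median level of 40.3 FPKM, the kept higher ones 1000.5 bases and 199 FPKM, and those not kept 1146 bases and 76.1 FPKM. The rule kept 29.5% of the 522 features of at least 3000 bases as lower and 0.192% as higher. Among the 1729 features of 400 to under 1000 bases it kept 4.51% as lower and 6.88% as higher. The median difference between the sides was 0.0024 in the latter class and -0.12 in the former. Against WT, the features of at least 3000 bases had a median of -0.27 and -0.24 in the TIF35-OE cultures and -0.19 and -0.15 in those of UTP6-OE. The cultures of LSM5-OE had -0.17 and -0.025 and those of PRP22-OE -0.11 and -0.063, so the first LSM5-OE culture lay within the range of UTP6-OE. With length-centred values the rule kept 489 features as higher and 461 as lower, and limma called 654 higher and 610 lower. The balance of higher and lower features therefore depended on this step.

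**Figure D4:**
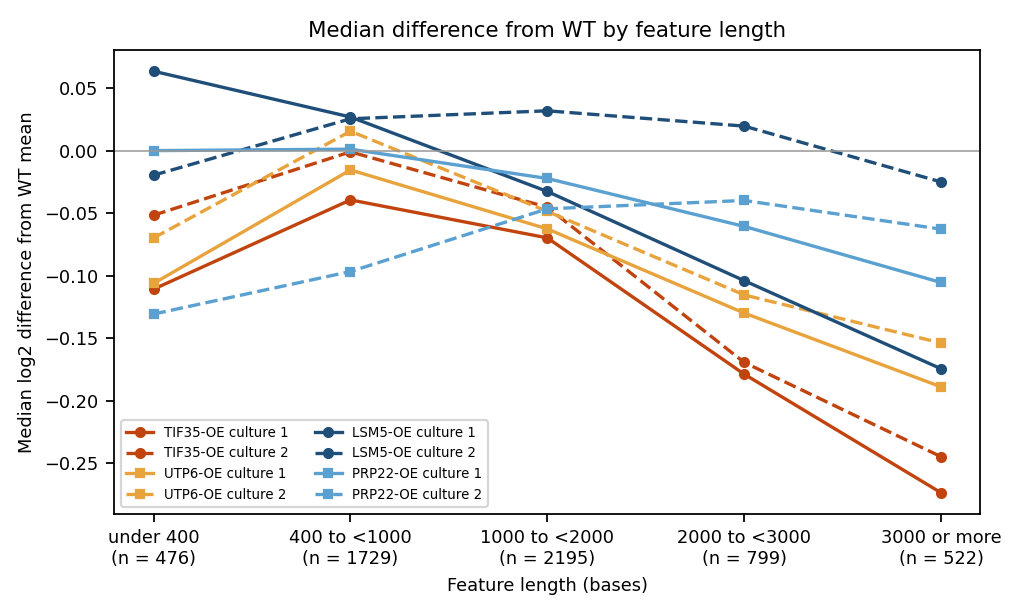
Median log2 difference from the mean of the 2 WT cultures in 5 classes of feature length, with 1 line per culture of the 4 overexpression strains. In features of at least 3000 bases the TIF35-OE cultures lie lowest, at -0.27 and -0.24, and the second LSM5-OE culture highest, at -0.025.

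At the edge of the rule, VPS75, MUB1 and MAS2 were kept with gaps of 0.00013, 0.00037 and 0.00057 on the log2 scale. VPS75 had 219 to 240.0 FPKM on the side of TIF35-OE and UTP6-OE and 193 to 219 on the other. POG1, with 42.7 to 51.0 against 51.0 to 56.6 FPKM, and SMA2, with 13.7 to 16.5 against 16.5 to 21.4, were just not kept, and so was NAG1, which was listed at 0 in several libraries of both sides.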

How the data were processed

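RNA of 2 cultures each of TIF35-OE, UTP6-OE, LSM5-OE, PRP22-OE and WT was sequenced as 150 bp paired-end reads from TruSeq libraries. Groups and culture numbers came from the sample labels. According to the methods, the authors used HISAT2 for alignment, featureCounts for counting, edgeR for filtering and DESeq2 for testing, while the submitters' processing notes name STAR, RSEM, edgeR and limma, with no versions. The deposited values are FPKM by the authors, and a second table, labelled as reads, equalled the first in 58240 of 58240 cells, so no count test was run. The genome release of the files is not given in the sources used here. Of the 5824 features, 5775 matched RefSeq R64, which gave names, lengths, coordinates and sequences.

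The 5768 features whose mean was 1 FPKM or more were fitted by limma 3.58.1 (R 4.3.3, lmFit and eBayes with trend) on log2(FPKM + 0.5), with 5 strain means and 5 residual degrees of freedom. The sides were contrasted as the mean of 2 strains less the mean of the other 2, p-values were two-sided, and Benjamini-Hochberg adjustment was over all 5768 features. A fold change on this scale understates the change of low genes. The code was tested on simulated data. Fragment length and depth were estimated from the steps of low FPKM values of features of known length, of which between 78.4% and 94.4% per library lay near a whole number of fragments. How the authors scaled features shorter than the fragments was not determined.

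The members, lists, motifs and tests were chosen with earlier results of these data known, so lists are given by counts and medians only. Named genes were the markers ZPS1, ZRT1 and FTR1, the 4 overexpressed genes, the 12 higher and 12 lower kept and called genes of at least 400 bases with the widest gap, up to 4 kept genes per list, and the 3 features just inside and just outside the rule. Other list members were named after their values were seen. Alternatives were pseudocounts of 0.1 and 1, other filters, median-of-ratios rescaling, features of at least 400 bases, long-fragment libraries, repeated features once, fewer libraries or groups in the fit, a replicate block, a short-fragment covariate, no trend and each culture left out. Length-centred values, each library less its median over features of like length in 20 classes, were chosen after seeing the data. Other steps used Python 3.11.15, pandas 2.3.3 and numpy 2.4.6.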

Additional observations from a re-analysis of the deposited data

Results flagged for a closer look

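Among the markers and the genes with the widest gaps, for 7 the sides differed from WT in opposite directions, with both differences past the test. The genes with the widest gaps had been chosen among those kept and called between the sides. Their limma adjusted p for the sides is therefore no separate support. The 2 differences from WT share its 2 cultures. ZPS1 differed between the sides by -5.81, being -4.67 from WT in TIF35-OE and UTP6-OE and 1.14 in LSM5-OE and PRP22-OE (log2). For ZRT1 these values were -2.20, -0.93 and 1.27, and for its neighbour ADH4 -2.04, -0.998 and 1.04. FET3 had -0.98, -0.65 and 0.33. In the other direction, HSP30 had 1.36, 1.04 and -0.32, CIP1 1.05, 0.76 and -0.30, and COM2 0.81, 0.44 and -0.37. The limma adjusted p for the sides lay between 2.64e-10 for ZPS1 and 7.07e-05 for COM2. Agreement of both strains of a side was required by the rule for every kept gene. For ZPS1, ZRT1 and ADH4 it is thus not a separate result. Whether their direction goes with the overexpressed gene or with another difference of these strains cannot be told apart.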

How the results depend on the processing

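The 1259 calls between the sides became 49 with the long-fragment libraries only and 460 with the 2 sides as the only groups, since the former leaves 2 residual degrees of freedom and the latter adds differences between strains to the spread. With each culture left out in turn they ranged from 769 to 1306. The features kept numbered 2002 with the long-fragment libraries only, where fewer cultures have to be separated, 609 higher and 1393 lower. The kept higher and lower features numbered 509 and 560 after rescaling by the median of ratios and 489 and 461 with length-centred values. With each culture left out, 1229 to 1376 features were kept, 303 to 410 of them higher and 819 to 1054 lower, and the 410 came without the second LSM5-OE culture. Other alternatives left the count of calls within 1.5 times the main count. With culture number as a replicate block 1127 were called. The numbers did not pair the cultures, as differences between cultures 1 and 2 correlated between strains with r from -0.36 to 0.43.

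No called named gene reversed under any alternative. A gene kept by the rule could not reverse when a culture was left out, so for kept genes this is not a separate result. Of the 126 named genes, 93 lost their call with the long-fragment libraries only, 36 with the 2 sides as the only groups, 15 with length-centred values and 9 after rescaling, and at most 21 when a culture was left out. FPKM of features under 400 bases depend most on the fragment length of a library.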
